A study of Rattus norvegicus with 24 samples.

Results

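The comparison set the striatum, measured on 8 of the 24 arrays of the series, against 4 other regions of the same brains, measured on the other 16. The striatal arrays were chosen by their labels: 4 of dorsal striatum and 4 of ventral striatum. The other arrays covered the prefrontal cortex, the hippocampus, the substantia nigra with the ventral tegmental area (SN/VTA) and the vermis of the cerebellum, with 4 arrays each. The study compared an environmental with a genetic rat model of attention deficit hyperactivity disorder, and each region had 1 array in each of 4 strain groups of male rats aged 55 to 65 postnatal days. SDpcb denotes Sprague-Dawley rats exposed to PCB (polychlorinated biphenyls; 4 rats in the series), and SHR the spontaneously hypertensive rat, the inbred genetic model (8 rats). SD denotes unexposed Sprague-Dawley controls (8 rats), and WKY the Wistar-Kyoto strain, also a control (8 rats). The dose and age of PCB exposure are not given in the sources used here, and neither is whether the rats of a group were pooled for an array.

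The striatum is the input nucleus of the basal ganglia. Most of its neurons are GABA-releasing medium spiny neurons, which receive glutamate from the cortex and thalamus and dopamine from the SN/VTA. They form a direct pathway, whose cells carry the D1 dopamine receptor and the peptides substance P and dynorphin, and an indirect pathway, whose cells carry the D2 dopamine receptor, the adenosine A2a receptor and enkephalin. Dopamine and adenosine act on these cells through a cyclic AMP cascade whose components are textbook striatal genes.

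Each value was a MAS5 signal, a probe set's brightness on a linear scale, and arrays had a trimmed mean close to 500.2. For each gene the mean log2(signal + 1) of the 2 striatal arrays minus the mean of the 4 other arrays was taken inside each strain group, which gave 4 differences per gene. A log2 difference is given as the mean of these 4 with its standard error (SE, n = 4 strain groups). A gene was called higher or lower where limma's adjusted p was under 0.05 and the mean difference was at least 1 on the log2 scale in size. All 6 regions were dissected from 1 set of rats per strain group. A p-value of this difference thus measures how well the 4 strain groups matched in it. Arrays are too few to measure the spread between rats. An exact sign-flip test on 4 differences cannot go below p = 0.125, so all p-values here rest on the variance that limma shared across probe sets. In tissue RNA, fewer cells of a type and less RNA per cell cannot be told apart.

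The arrays mostly matched their labels. The median signal of an array was 92.5 to 184 on the striatal arrays and 89.0 to 178 on the others, and it moved with strain group: the SDpcb arrays had 89.0 to 126 and the SD arrays 131 to 184. Transcripts of a neighbouring or distant region were seen most on 4 arrays. The PFC array of WKY rats carried the cerebellar genes Gabra6 at a signal of 2297 and Pcp2 at 668, while the other 3 PFC arrays had at most 97.0 and 76.2. The hypothalamic peptide genes Oxt and Avp had signals of 1283 and 801 on the SN/VTA array of SDpcb and 9747 and 5563 on that of SHR. The SN/VTA arrays of SD and WKY had 156 and 58.6 for Oxt. Oxt also reached 1112 on the ventral striatum array of SHR, against at most 75.0 on the other 7 striatal arrays. Pmch, a peptide gene of the lateral hypothalamus, was on all 4 SN/VTA arrays, at 13017 in SDpcb, 9765 in SHR, 2447 in SD and 1038 in WKY, against at most 280.4 on any other array. So the SN/VTA arrays of SD and WKY also held hypothalamic transcripts, and its part in the differences from the SN/VTA was not tested. The SN/VTA array of SDpcb was also low in dopamine neuron genes. Slc6a3 had 955 there, against 5916 to 8411 on the SN/VTA arrays of SD, SHR and WKY. Th had 217, against 1367 to 3742 on the same arrays. The part of the dissection in this was not tested. Counts are given below without the 4 arrays (PFC of WKY, SN/VTA of SDpcb and SHR, ventral striatum of SHR) and without all SN/VTA arrays.

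In the striatum 296 genes were called higher and 155 lower than the mean of the other 4 regions, which is 3.29% and 1.72% of the 9009 genes tested. The differences had 1 sign in all 4 strain groups for 450 of these 451 genes. The median log2 difference was 1.48 for the genes called higher and -1.24 for those called lower, against 0.01 for all genes tested. The higher side reached further: 78 genes were at least 2 log2 units higher and 25 at least 3, while 24 were at least 2 units lower and 3 at least 3. Without the 4 arrays that carried transcripts of other regions, 335 genes were called higher and 187 lower, and these held 291 of the 296 and all 155 of the 155. Without all 4 SN/VTA arrays 287 were called higher and 165 lower, holding 248 and 135. Just inside the threshold lay Aldh1b1 at 1.001 and Ttc39a at -1.001.

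Genes that define medium spiny neurons were among those furthest above the other regions. All 19 members tested of the medium spiny neuron list were called higher, with a median log2 difference of 3.16 against 0.01 for all genes tested, and the count was 19 of 19 also without the 4 arrays named above. For 17 of the 19 every striatal array lay above every one of the other arrays, a separation that 74 of all genes (0.821%) showed. The opposite separation, every striatal array below every other array, was seen for 18 genes (0.200%). The filter used the mean signal over striatal and other arrays together. Members dim elsewhere, such as Adora2a, Drd2 and Gng7, thus passed it through their striatal signals, which limits what these counts show. All 19 members on the array passed, so the filter removed none of them. The list was built from knowledge of the striatum, so its level is only a check of the dissection.

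Adora2a, the adenosine A2a receptor of indirect pathway neurons, had signals of 1335 to 5043 (median 3306) on the striatal arrays, against 8.06 to 227 (median 47.0) on the other arrays. The lowest striatal array, ventral striatum of SHR, was several times above the highest other array, the hippocampus of SDpcb, so the groups did not overlap. Its log2 difference of 6.15 ± 0.23 (adjusted p = 1.59e-09) was higher than that of any other gene tested. Rgs9, which shortens G protein signals downstream of dopamine receptors, had signals of 1404 to 5292 (median 3059.6) on the striatal arrays, against 45.7 to 247 (median 98.8) on the other arrays. All striatal arrays again lay above all others, and the log2 difference was 4.87 ± 0.17 (adjusted p = 8.38e-10).

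Drd1, the D1 dopamine receptor, had signals of 3441 to 6531 (median 5358) on the striatal arrays, against 151 to 708 (median 269) on the other arrays, and the groups did not overlap. Its log2 difference was 4.15 ± 0.13 (adjusted p = 6.02e-10). Drd2, the D2 dopamine receptor, had signals of 625 to 1833 (median 1115) on the striatal arrays, against 11.3 to 227 (median 62.4) on the other arrays. The highest of the other arrays were the SN/VTA of SHR (227) and of WKY (198), where dopamine neurons themselves carry this receptor as an autoreceptor. The log2 difference of Drd2 was 4.32 ± 0.27 over the 4 regions and 3.14 against the SN/VTA alone (adjusted p = 1.64e-07 and 3.35e-04). Gpr6, an orphan receptor known from indirect pathway neurons, was under the filter on mean signal and was not tested; its signals were 479 to 1486 (median 842) on the striatal arrays, against 3.89 to 111 (median 23.9) on the other arrays.

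**Figure D1:**
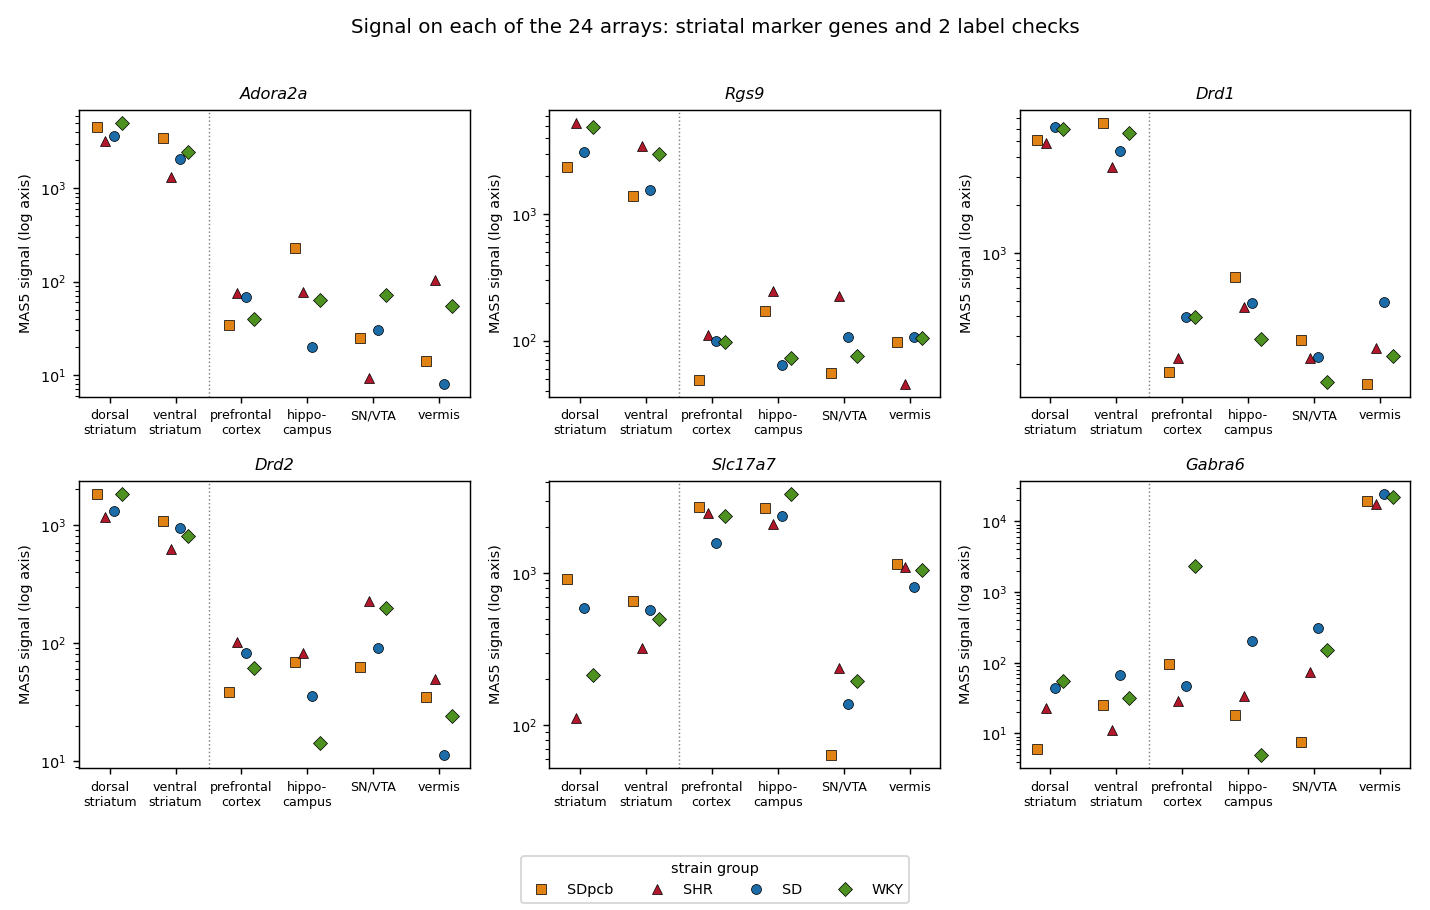
MAS5 signal (log axis) of 4 striatal marker genes and of Slc17a7 and Gabra6 on each of the 24 arrays, with the 2 striatal regions left of the dotted line and the 4 other regions right of it. Each symbol is 1 array of the strain group in the legend. The 8 striatal arrays lie above all others for the 4 marker genes, and 1 prefrontal cortex array (WKY) carries Gabra6.

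Stretches before the start were looked for in 6 genes, the 4 marker genes and Penk and Pdyn. For 4 of them, Rgs9, Drd1, Drd2 and Pdyn, a stretch was found in RefSeq (build GRCr8), and those of the 3 marker genes are shown. Each run is the 250 bases before the annotated start, on the strand of the gene. Whether an annotated start is where transcription begins was not checked. The Rgs9 stretch lies at chr10:94770388-94770637 (minus strand), the Drd1 stretch at chr17:10546354-10546603 (plus strand) and the Drd2 stretch at chr8:58605153-58605402 (plus strand). Capitals mark GGGCGG on either strand, the core letters of a GC box bound by SP family factors.
Rgs9: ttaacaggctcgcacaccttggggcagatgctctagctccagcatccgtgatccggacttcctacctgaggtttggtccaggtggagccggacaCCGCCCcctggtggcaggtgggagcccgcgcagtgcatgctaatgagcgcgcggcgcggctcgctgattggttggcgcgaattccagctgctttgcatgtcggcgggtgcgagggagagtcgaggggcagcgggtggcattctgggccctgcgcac
Drd1: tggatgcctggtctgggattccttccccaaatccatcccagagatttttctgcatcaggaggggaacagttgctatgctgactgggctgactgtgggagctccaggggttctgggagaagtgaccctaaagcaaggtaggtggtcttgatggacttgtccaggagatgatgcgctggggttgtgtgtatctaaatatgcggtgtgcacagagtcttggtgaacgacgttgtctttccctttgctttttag
Drd2: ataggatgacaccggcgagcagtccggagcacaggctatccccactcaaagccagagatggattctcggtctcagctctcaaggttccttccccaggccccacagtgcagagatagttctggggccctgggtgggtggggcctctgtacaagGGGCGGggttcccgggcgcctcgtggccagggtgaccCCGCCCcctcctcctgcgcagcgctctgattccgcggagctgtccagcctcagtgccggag
These letters occurred 2 times before Drd2, 1 time before Rgs9 and not in the Drd1 window. They were found in 60.8% of the 7555 tested genes with a promoter in the table and in 30.5% of all 33469 promoters there. TGACGTCA, the letters of a full cyclic AMP response element, was in 3.18% of these tested genes and 1.59% of all promoters. CGTCA, which it contains, was in 29.8% and 18.2%. Neither was in any of the 3 windows on either strand. The Pdyn window, not shown, held none of the 3 motifs searched. These are matches of letters only.

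Some genes of the cyclic AMP cascade below these receptors were higher. In the list of G protein and cAMP genes 8 of 31 members were called higher and 1 lower. The shares over all genes were 3.29% and 1.72%, so the 1 lower member is near its share. They apply to each list count below against the mean of the 4 regions. The list's median log2 difference was 0.20. Gng7, a gamma subunit of the striatal stimulatory G protein, had signals of 1437 to 4305 (median 2276) on the striatal arrays, against 7.99 to 422 (median 108) on the other arrays, without overlap, and a log2 difference of 4.58 ± 0.21 (adjusted p = 6.40e-09). Gnal, its olfactory-type alpha subunit, was 2.49 ± 0.08 higher and lay between 1.61 above the SN/VTA and 3.13 above the PFC. Adcy5, the main striatal adenylyl cyclase, had signals of 689 to 1817 (median 1022) on the striatal arrays, against 8.60 to 260.0 (median 152) on the other arrays and a log2 difference of 3.10 ± 0.16 (adjusted p = 2.87e-08).

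The phosphoproteins that this cascade acts on followed. Ppp1r1b, which encodes DARPP-32, the phosphatase inhibitor switched on by protein kinase A, had signals of 5137 to 10192 (median 6598) on the striatal arrays, against 302 to 1317 (median 738) on the other arrays, without overlap, and a log2 difference of 3.29 ± 0.10 (adjusted p = 3.75e-10). Arpp21, a further kinase substrate, was 3.19 ± 0.08 higher by its brightest probe set. Another Arpp21 probe set gave 3.53 and a further one 0.28 (adjusted p = 0.219), so probe sets of this gene disagreed. Arpp19 was 2.48 ± 0.09 higher, but only 0.88 against the PFC, where it was not called.

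Some of the enzymes that end the signal were higher, where 3.29% of all genes were. Of 9 phosphodiesterases 3 were called higher and none lower (median log2 difference 0.32): Pde1b (3.06 ± 0.09), Pde10a (2.50 ± 0.10) and Pde2a (1.97 ± 0.17), the first regulated by calcium and calmodulin and the second a dual-substrate enzyme of medium spiny neurons. Pde10a had the brightest signals of the 3, 7922 to 16335 (median 13035) on the striatal arrays, against 889 to 4692 (median 2426) on the other arrays. Pde2a passed against the SN/VTA and vermis (2.79 and 3.50) but not against the PFC (0.91) or hippocampus (0.65). Of 11 RGS genes, which speed the shut-off of G proteins, 4 were called higher, Rgs9 and Rgs2 (1.52 ± 0.09) against each of the 4 regions. Rgs14 (1.59 ± 0.12) was called higher against the SN/VTA (3.48) and vermis (3.36), while its difference from the hippocampus was -0.83.

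Some neuropeptide precursors gave the pathways a second signature. Among 16 tested, 8 were called higher and 1 lower, against 3.29% and 1.72% of all genes. The list's median log2 difference was 1.09. It was 2.56 against the vermis, 0.29 against the PFC, 0.21 against the hippocampus and 0.09 against the SN/VTA. Against the vermis 12 were called higher and none lower. The counts were 6 and 4 against the PFC, 5 and 4 against the hippocampus and 5 and 2 against the SN/VTA. Penk, the enkephalin precursor of the indirect pathway, had signals of 8636 to 13709 (median 10604) on the striatal arrays, against 543 to 2189 (median 1332) on the other arrays, and no other array reached the lowest striatal one; the log2 difference was 3.16 ± 0.10 (adjusted p = 6.11e-10). Tac1, the substance P precursor of the direct pathway, had signals of 1795 to 4138 (median 3353) on the striatal arrays, against 19.2 to 1873 (median 213) on the other arrays. The groups overlapped there, because an SN/VTA array reached above the lowest striatal array, ventral striatum of SHR; the difference was 1.91 from the SN/VTA and 6.53 from the vermis.

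Pdyn, the dynorphin precursor, had signals of 2305 to 4158 (median 2859) on the striatal arrays, against 4.42 to 1085 (median 341) on the other arrays and a log2 difference of 3.59 ± 0.15 (adjusted p = 2.98e-09). Its nearest region was the hippocampus (1.71), whose granule cells also make dynorphin. Of the direct pathway list 5 of 7 tested members were called higher. Only 3 of the 7 genes of the indirect pathway list were tested, Adora2a, Drd2 and Penk, and all 3 were called higher. These 3 and Drd1, Tac1, Pdyn and Chrm4 are also in the medium spiny neuron list. The pathway counts thus largely repeat that list and share its limit from the filter. Slc35d3, a nucleotide sugar transporter family member known from direct pathway neurons, was 2.99 ± 0.10 higher, without overlap.

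Some peptides did not separate the striatum from every region. Cartpt, which encodes the cocaine- and amphetamine-regulated peptide, was 1.87 ± 0.33 higher than the mean of the 4 regions, but its difference from the SN/VTA was -1.28, and without the ventral striatum arrays it was 0.94 and not called. With robust empirical Bayes it was not called either (adjusted p = 0.0589). Nts, the neurotensin precursor, was 3.87 above the PFC and 5.07 above the vermis, but -1.32 against the hippocampus, where it was called lower. Tac3, the neurokinin B precursor, was 1.95 ± 0.14 higher and was called against all 4 regions. Adcyap1, the precursor of the peptide PACAP, was the member called lower (-2.66 ± 0.24, adjusted p = 3.89e-06), with 19.1 to 155 (median 68.4) on the striatal arrays, against 58.4 to 1879.8 (median 426) on the other arrays.

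Transcription factors of the striatal lineage were among the higher genes. Of 15 tested, 10 were called higher and none lower, against 3.29% and 1.72% of all genes. Their median log2 difference was 1.61, and the count was 10 also without the 4 arrays named above. Rarb, a retinoic acid receptor, had signals of 1477 to 3824 (median 3032) on the striatal arrays, against 93.4 to 344 (median 216) on the other arrays, without overlap, and lay 3.50 to 3.87 log2 units above each single region. Meis2, a homeobox factor of the striatal primordium, was 3.34 ± 0.12 higher, from 1.48 against the PFC to 6.16 against the vermis. Foxp1 (2.11 ± 0.16 higher) and Dlx5, a homeobox factor of GABA neurons (2.50 ± 0.22 higher), also had every striatal array above every other one.

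Bcl11b, which encodes CTIP2 and in mice is needed for medium spiny neurons to mature, was 2.60 ± 0.10 higher but only 0.38 against the hippocampus, where it was not called (adjusted p = 0.0268). Its signals were 3899 to 7383 (median 6409) on the striatal arrays, and the hippocampus reached 5867 in SDpcb. Retinoid genes moved in both directions: 6 of 12 were called higher and 2 lower, against 3.29% and 1.72% of all genes. Beside Rarb, the partner receptor Rxrg was 3.29 ± 0.24 higher, and the retinoid carriers Crabp1 and Rbp4 were 1.45 ± 0.22 and 1.23 ± 0.15 higher. Cyp26b1, which breaks retinoic acid down, was -1.97 ± 0.24 and was called lower against each of the 4 regions; Aldh1a1, which makes it, was -1.52 ± 0.14, furthest below the SN/VTA (-2.55).

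Kinases, phosphatases and small GTPase regulators named for their striatal enrichment were higher in 8 of 18 cases and lower in 2. The shares over all genes were 3.29% and 1.72%, and the list's median log2 difference was 0.89. Rasd2, the striatal GTPase Rhes, had signals of 3087 to 8398 (median 5209) on the striatal arrays, against 110.5 to 1923 (median 531) on the other arrays, and its lowest striatal array lay above all others; the log2 difference was 3.37 ± 0.09 (adjusted p = 2.09e-10). Rasgrp2, a calcium-regulated exchange factor for RAP GTPases, was 3.53 ± 0.18 higher, and Ptpn5, the striatum-enriched phosphatase STEP, 2.80 ± 0.09 higher. Dgkb and Dclk3 were 2.25 ± 0.09 and 2.34 ± 0.10 higher.

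Ion channel genes divided by subtype. Of 16 sodium and calcium channel genes 7 were called higher and none lower, against 3.29% and 1.72% of all genes. Scn4b, a sodium channel beta subunit, had signals of 4134 to 11809.9 (median 8569) on the striatal arrays, against 539 to 3090.0 (median 1359) on the other arrays and was the one of the 7 with no overlap, at 2.67 ± 0.09 (adjusted p = 7.48e-10). Others rested on the SN/VTA and vermis: Cacng3 was 1.76 and 3.49 above these but -0.56 against the PFC, and Scn3b was 3.88 above the vermis but -0.71 against the hippocampus.

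Among 19 voltage-gated potassium channel genes 5 were called higher and 1 lower, against 3.29% and 1.72% of all genes. The 1 lower is a single gene and no result about the list. Kcna5, of the delayed rectifier family, had signals of 420.4 to 838 (median 719.9) on the striatal arrays, against 4.49 to 233 (median 83.3) on the other arrays, and the groups did not overlap; the log2 difference was 3.52 ± 0.25 (adjusted p = 4.04e-07). Kcna4, which carries A-type current, was 1.93 ± 0.09 higher. Kcnc1, the fast channel of parvalbumin neurons, was the one called lower, at -1.47 ± 0.08. Of 11 inward rectifier and other potassium channels 2 were called higher, Kcnj4 (2.73 ± 0.18) and the two-pore channel Kcnk2 (2.38 ± 0.10), and 3 lower, led by Kcnj6 (-2.03 ± 0.19), a G protein-gated channel that was called lower against each region.

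Of 13 GABA synthesis and receptor genes 2 were called higher and 2 lower, with a median log2 difference of 0.27. Gad2, a GABA-synthesizing enzyme, had signals of 390.0 to 945 (median 563) on the striatal arrays, against 154 to 401 (median 210.2) on the other arrays and was called higher against each of the 4 regions, between 1.16 and 1.58. Slc32a1, the vesicular GABA transporter, was 1.44 ± 0.12 higher. Gabra6, a receptor subunit of cerebellar granule cells, and Gabbr2 were called lower (-3.36 ± 0.21 and -1.01 ± 0.10); Gabbr2 was close to the threshold and lost its call in 7 alternatives beside the higher size threshold, at -0.85 to -0.998: quantile and cyclic loess scaling, and without SHR, WKY or the dorsal striatum, hippocampus or PFC arrays. None of 12 ionotropic glutamate receptor genes was called by limma (median log2 difference 0.16), although 9 of the 12 had an unadjusted p under 0.05. Of all genes 3.29% were called higher and 1.72% lower, so 12 genes would hold few calls at these shares. Gria1 (0.41) and Grik2 (0.59) had adjusted p of 0.00395 and 2.50e-04 and stayed under the size threshold.

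Immediate early genes, which neurons switch on with activity, were higher in 6 of 10 cases, against 3.29% of all genes. The median log2 difference was 1.10, but they were not higher against every region. Without the SN/VTA arrays Arc (0.76), Egr1 (0.69), Homer1 (0.73) and Nr4a1 (0.91) lost the call. Arc, Egr1 and Homer1 also lost it without the vermis arrays, and again without the dorsal striatum arrays. Against the PFC none of the 10 genes was called by limma (5 had an unadjusted p under 0.05) and the median was -0.39. Of all genes 2.71% were called higher and 2.61% lower there, so 10 genes would hold few calls at these shares. Against the SN/VTA 7 were called higher, as were 5.19% of all genes, and the median was 2.28. Egr2 had signals of 849 to 3031 (median 1419) on the striatal arrays, against 82.3 to 3246 (median 308) on the other arrays; it was 3.60 above the SN/VTA and -0.07 against the PFC. Nr4a1 followed the same order at 3.38 and -0.11. How long the dissection of each region took is not given in the sources used here, and its part in these values was not tested.

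Other receptors added single members. Of 17 further G protein-coupled receptor genes 5 were called higher and 1 lower, against 3.29% and 1.72% of all genes. Gpr149, an orphan receptor, was 2.22 ± 0.19 higher and was called against each region. Adra2c, the alpha2C adrenergic receptor, was 2.38 ± 0.29 higher, and Chrm4, the M4 muscarinic receptor of direct pathway neurons, 2.02 ± 0.24 higher, with 264 to 661 (median 404) on the striatal arrays, against 8.71 to 251 (median 116) on the other arrays. Grm5 and Htr2c were called higher against the mean (1.81 ± 0.08 and 1.69 ± 0.11), but Grm5 differed by 0.27 from the hippocampus and Htr2c by -0.04 from the SN/VTA.

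Set against one region at a time, the number of called genes depended on the region. Against the PFC 244 genes were called higher (2.71%) and 235 lower (2.61%), and against the hippocampus 191 (2.12%) and 222 (2.46%). Against the SN/VTA there were 468 higher (5.19%) and 313 lower (3.47%), and against the vermis 904 higher (10.0%) and 433 lower (4.81%). Without the 4 arrays named above the SN/VTA comparison, left with 2 strain groups, gave 514 higher and 486 lower. With each array centred on its median the balance changed: 373 genes higher and 495 lower against the SN/VTA, 1357 and 278 against the vermis, and 190 and 338 against the PFC.

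A set of 76 genes (0.844%) was called higher in the striatum against each of the 4 regions, and 18 genes (0.200%) were called lower against each. The 8 with the largest smallest difference were Adora2a, Rgs9, Rarb, Drd1, Syndig1l, Gng7, Drd2 and Atp6ap1l. Syndig1l, known for its striatal expression, lay between 3.26 above the SN/VTA and 5.92 above the PFC. Its signals were 837 to 2362 (median 1475) on the striatal arrays, against 4.59 to 183 (median 106) on the other arrays. Atp6ap1l, related to an accessory subunit of the proton pump, lay between 2.92 and 4.60. Ankrd63 had the fourth highest difference from the mean (4.51 ± 0.19), but it was 7.31 above the SN/VTA and 1.73 above the PFC.

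**Figure D2:**
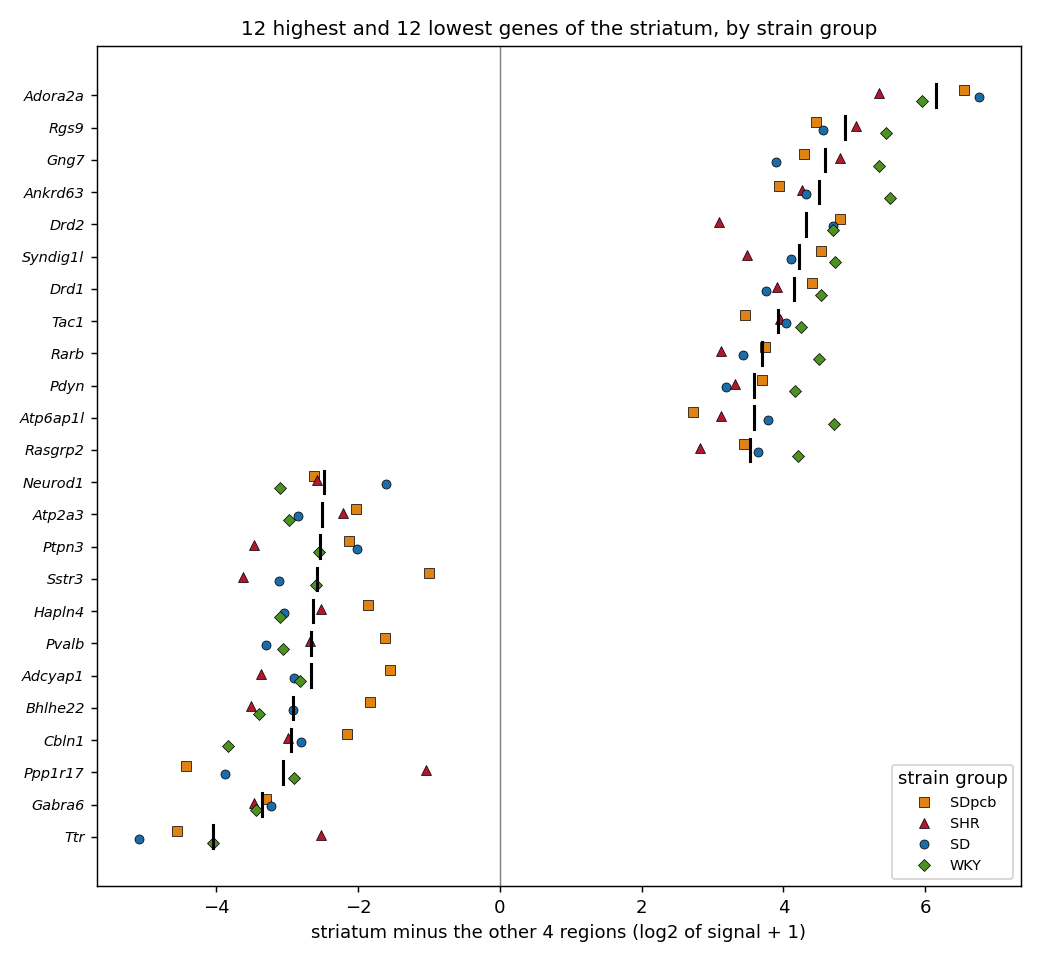
The striatum minus the other 4 regions (log2 of signal + 1) for the 12 genes with the highest and the 12 with the lowest mean difference among those called. Each symbol is the difference in 1 strain group and the black bar is the mean of the 4. Each of these genes had 1 sign in all 4 strain groups, from Adora2a at 6.15 to Ttr at -4.05.

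The 18 genes lower in the striatum than in every other region included several of fast-spiking and excitatory cells. Pvalb, the calcium buffer parvalbumin of fast-spiking interneurons, had signals of 229 to 1208 (median 553) on the striatal arrays, against 883 to 15431 (median 3126) on the other arrays. Its difference was -2.66 ± 0.19 (adjusted p = 5.96e-07), from -1.51 against the hippocampus to -4.64 against the vermis, whose Purkinje cells also carry it. Hapln4, a link protein of perineuronal nets, was -2.63 ± 0.16, with signals of 124 to 1413 (median 312) on the striatal arrays, against 595 to 4881 (median 2144) on the other arrays. Bdnf, the brain-derived neurotrophic factor that the striatum receives mainly from cortical axons, was -1.98 ± 0.28 (adjusted p = 1.50e-04).

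Sstr3, a somatostatin receptor of neuronal cilia, was -2.58 ± 0.35, and the tyrosine phosphatase gene Ptpn3 -2.54 ± 0.21. Zfpm2, a cofactor of GATA factors, was -2.29 ± 0.11 and between -3.27 and -1.88 against the single regions. Vsnl1, the calcium sensor visinin-like 1, and Nrn1, the neurite factor neuritin, also belonged to the 18, at -1.53 ± 0.11 and -1.97 ± 0.20. The striatal signals of Nrn1 were not even: dorsal striatum had 5147 in SDpcb, 521 in SHR, 2234 in SD and 836 in WKY.

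Of the 155 genes called lower, 10 were called lower against 1 single region, 61 against 2, 66 against 3 and 18 against 4. Ttr, the transthyretin of choroid plexus, had signals of 33.1 to 468 (median 106) on the striatal arrays, against 24.6 to 20978 (median 4539) on the other arrays and the lowest difference of all, -4.05 ± 0.29 (adjusted p = 4.36e-07). It was -5.95 against the hippocampus and -0.89 against the PFC, where it was not called. Of 9 cerebellar markers 6 were called lower (median -2.44), against 1.72% of all genes. Gabra6 had 5.99 to 67.3 (median 28.4) on the striatal arrays, and was -9.57 against the vermis and -0.13 against the hippocampus. Its difference from the PFC was -2.30, not called, and the PFC array of WKY carried it as given above.

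Excitatory forebrain genes depended on the region compared. Of 12 cortical glutamatergic markers 5 were called lower and 1, Lamp5, higher (1.31 ± 0.10), against 1.72% and 3.29% of all genes. The median was -0.42. Against the PFC 7 of the 12 were lower (median -1.67), as were 2.61% of all genes. Against the hippocampus 7 were lower and 1 higher (median -1.38), where 2.46% and 2.12% of all genes were. Against the SN/VTA 6 were higher and 1 lower (median 0.98), where 5.19% and 3.47% of all genes were. The lower one was Nrn1 (-1.40). Each call in the rarer direction is a single gene and no result about the list. The summed signal of these 12 genes was 19681 to 37513 on the striatal arrays and 13874 to 47587 on the others. Neurod6, a factor of cortical pyramidal neurons, had 210.0 and 303 on the dorsal and ventral striatum arrays of SDpcb and 40.2 and 58.4 on those of SHR. On the SD arrays it had 222 and 266, and on the WKY arrays 49.4 and 138. Striatal levels of this cortical marker were thus higher in both Sprague-Dawley groups than in SHR and WKY, and its part in differences between strain groups was not tested.

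Slc17a7, the vesicular glutamate transporter of cortical neurons, was -1.22 ± 0.29 (adjusted p = 0.00669). The call depended on the fit: it was lost with no trend on mean signal (adjusted p = 0.0767) and with robust empirical Bayes (adjusted p = 0.166). It was also lost without SHR (-0.80), WKY (-1.04, adjusted p = 0.0514) or the dorsal striatum (-0.95), hippocampus (-0.75) or PFC (-0.82) arrays. Slc17a6, the transporter of thalamic and hypothalamic neurons, was -1.78 ± 0.25, with -4.48 against the SN/VTA and -1.82 against the hippocampus, both called. It was -0.87 and not called without the SN/VTA arrays, and -0.995 and not called without the dorsal striatum arrays. Midbrain dopamine genes were lower against the SN/VTA in 4 of 5 cases (median -2.55), as were 3.47% of all genes. Ret, the receptor component for glial-derived neurotrophic factor, was -2.18 ± 0.12 and -4.17 against the SN/VTA. Th, which encodes the tyrosine hydroxylase of dopamine neurons, was under the filter, with 1.29 to 249 (median 36.1) on the striatal arrays, and its SN/VTA signals were 217 in SDpcb, 3742 in SHR, 2222 in SD and 1367 in WKY.

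**Figure D3:**
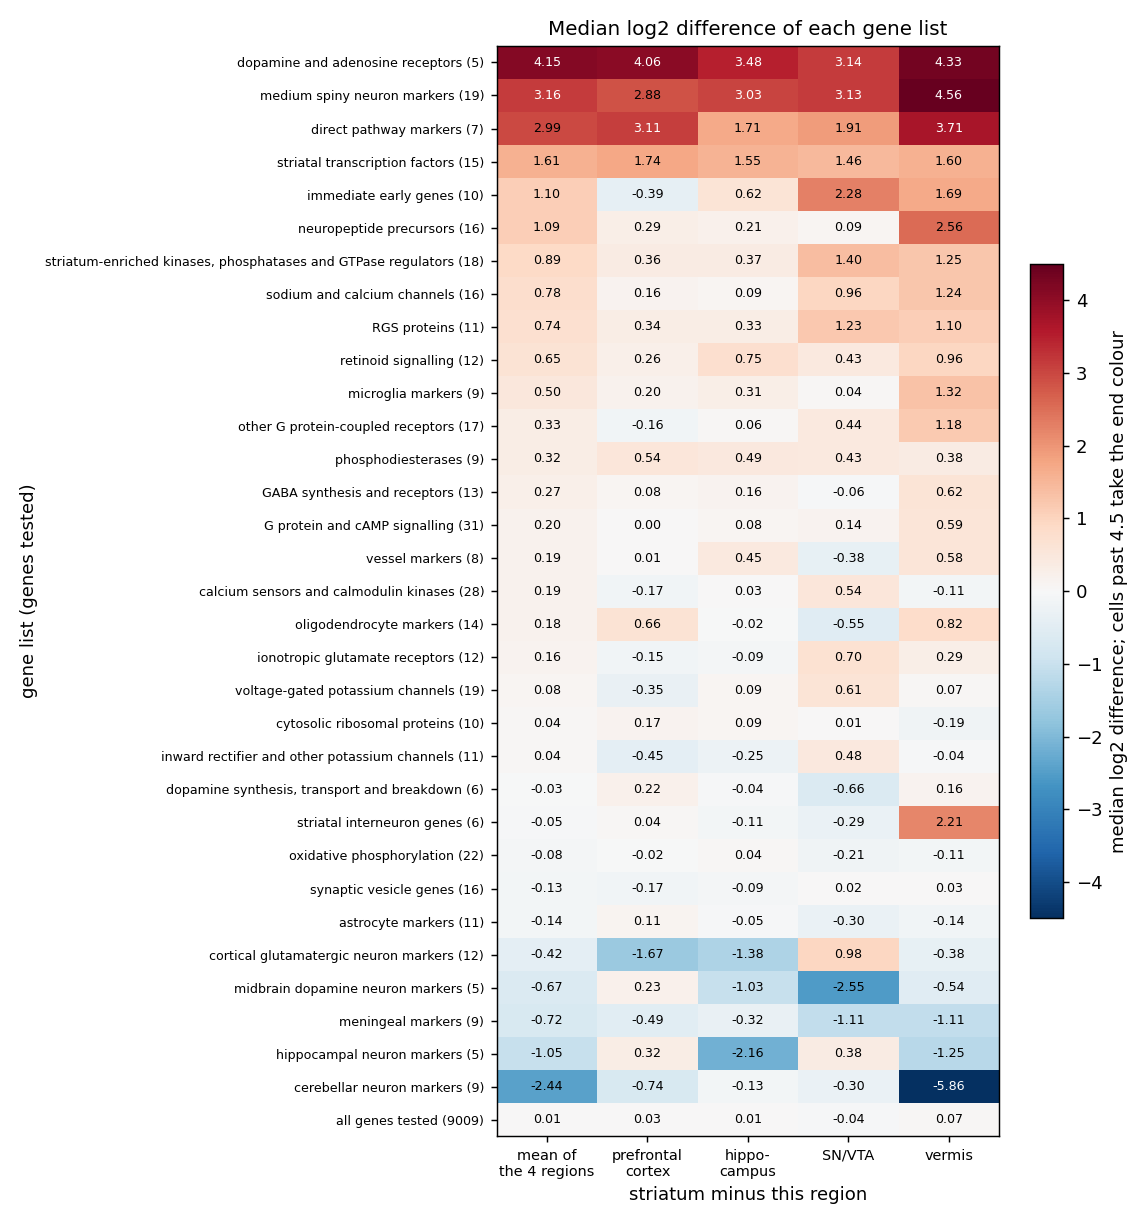
Median log2 difference of each gene list with at least 5 genes tested, for the striatum minus the mean of the 4 regions (left column) and minus each region alone. Colour runs from blue (lower in striatum) to red (higher in striatum), and the number of genes tested is in brackets. The medium spiny neuron list is at 2.88 or more against every region, while immediate early genes range from -0.39 against the prefrontal cortex to 2.28 against the SN/VTA.

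Markers of cell types that every region holds gave no calls against the mean of the 4 regions, where 3.29% of all genes were called higher and 1.72% lower, so lists of this size would hold few calls at that share. None of 11 astrocyte, 14 oligodendrocyte, 9 microglia or 8 vessel markers was called, with medians of -0.14, 0.18, 0.50 and 0.19. None of 22 oxidative phosphorylation genes (median -0.08) or 10 cytosolic ribosomal protein genes (median 0.04) was called either. These counts of 0 are limma's at both thresholds. At an unadjusted p under 0.05 there were 7 astrocyte, 8 oligodendrocyte, 7 microglia, 3 vessel, 5 oxidative phosphorylation and 1 ribosomal protein gene. Agt, the angiotensinogen gene of astrocytes, was just under the size threshold at -0.96 ± 0.15 (adjusted p = 3.89e-04) and was called lower against the SN/VTA (-2.58). It was also called lower than the mean without SHR or without the ventral striatum, PFC, hippocampus or vermis arrays (-1.37 to -1.003). Others under the size threshold were Slc1a2, the astrocyte glutamate transporter, at 0.70 ± 0.10 (adjusted p = 2.27e-04), and P2ry12, a microglial receptor, at 0.52 ± 0.10 (adjusted p = 0.00176). Against single regions some members of these lists were called. Oligodendrocyte markers were called higher than in the vermis in 5 of 14 cases (median 0.82), against 10.0% of all genes. They were called higher than in the PFC in 2 cases (median 0.66), against 2.71% of all genes. Only 1 was called lower than in the SN/VTA (median -0.55), where 3.47% of all genes were, so this is no result about the list. Microglia markers were called higher than in the vermis in 7 of 9 cases (median 1.32), against 10.0% of all genes. None was called higher by limma against the PFC, hippocampus or SN/VTA (1, 2 and 0 with an unadjusted p under 0.05). Of all genes 2.71%, 2.12% and 5.19% were called higher against these 3 regions, so 9 genes would hold few calls.

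Of 9 meningeal markers 2 were called lower and none higher, or 3 lower without the 4 arrays named above. The median was -0.72, and 1.72% of all genes were called lower than the mean of the 4 regions. The summed signal of the 9 markers was 2308 to 19591 on the striatal arrays and 3608 to 23529 on the others. Igfbp2 had 81.6, 78.9, 139 and 81.8 on the dorsal arrays of SDpcb, SHR, SD and WKY, and 169, 1377, 653 and 231 on the ventral ones. The ventral striatum of SHR was the highest of the 8, and without the dorsal arrays the difference of Igfbp2 was -0.20 and not called. Without SDpcb it was -0.999, just under the size threshold. Of 7 cholinergic neuron genes on the array only Zic4, which is also among the cerebellar markers, passed the filter. Its difference was -0.53 and not called, and it was called lower against the vermis (-2.68). Slc5a7, the choline transporter, was not tested. It had 134 to 448 (median 316) on the striatal arrays, against 3.56 to 275 (median 44.3) on the other arrays. Signals of the remaining untested members are not given here.

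Within the striatum the 2 regions did not contribute equally. For 147 of the 296 genes called higher (49.7%) the dorsal array lay above the ventral one in all 4 strain groups, which 11.1% of all genes did, and for 18 (6.08%) it lay below in all 4, which 10.7% of all genes did. For the 155 genes called lower the numbers were 5 above (3.23%) and 54 below (34.8%). The median dorsal minus ventral difference was 0.32 log2 units for genes called higher, -0.47 for genes called lower and 0.00 for all genes tested. Both striatal regions entered the rule as 1 mean, and their difference was not used by it. Markers of other tissue also differed between the 2 regions. The median dorsal minus ventral difference was -1.11 for meningeal and -0.98 for thalamic and hypothalamic markers. For cortical glutamatergic, choroid plexus and hippocampal markers it was -0.11, 0.03 and 0.36. The part of other tissue in the dorsal-ventral pattern was not tested.

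Rxrg had the largest dorsal excess among the genes described above, 1.31 ± 0.43 (SD, n = 4). Its dorsal signals were 1126, 1089.7, 582 and 824 in SDpcb, SHR, SD and WKY, and its ventral signals 476, 282, 280.1 and 409. The dorsal array was above its ventral partner in every strain group, as it was for Adora2a (0.88), Drd2 (0.83) and Rgs9 (0.77). Drd1 and Pdyn were nearly level between them (0.18 and -0.06).

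The peptide genes Cartpt and Nts ran the other way. Cartpt was -1.86 ± 0.50 in dorsal minus ventral striatum (SD, n = 4) and Nts -1.37 ± 0.84, both below in all 4 strain groups. Tac3 (-0.73) and the receptor gene Gpr149 (-0.52) also had the ventral array above the dorsal one each time. With the dorsal arrays alone 373 genes were called higher and 233 lower than the other 4 regions, holding 287 of the 296 and 146 of the 155. With the ventral arrays alone the counts were 238 and 97, holding 228 and 90.

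**Figure D4:**
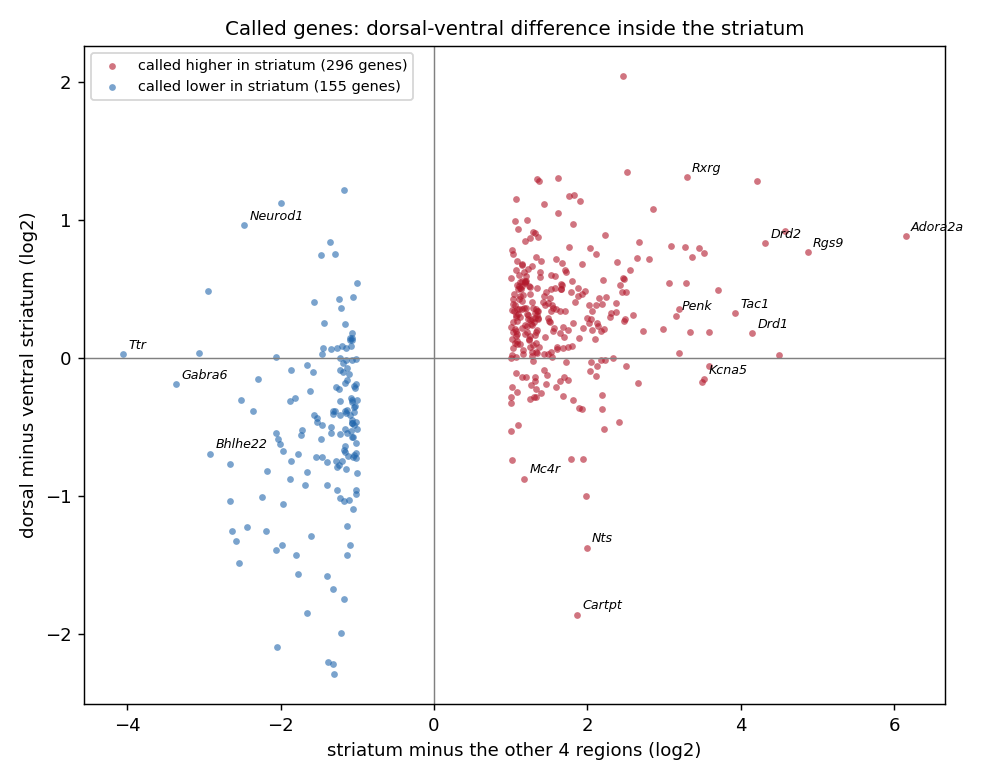
Dorsal minus ventral striatum (log2, vertical axis) against the striatum minus the other 4 regions (log2, horizontal axis) for the 296 genes called higher and the 155 called lower, each point 1 gene. More of the higher genes lie above the zero line (median 0.32) and more of the lower genes below it (median -0.47); Cartpt and Nts are among the exceptions.

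The striatal difference was also compared between the 4 strain groups. The differences of 9009 genes correlated between pairs of strain groups at Pearson r of 0.68 to 0.79, a description across genes that share arrays' brightness and the striatal pattern itself. Genes called higher had medians of 1.57 in SDpcb, 1.48 in SHR, 1.43 in SD and 1.63 in WKY, and genes called lower -1.15, -1.30, -1.23 and -1.55 in the same order. A moderated F test of whether strain groups differed in the striatal difference passed for 2 genes (0.0222%), Stap2 and Dcakd, while 278 genes had an unadjusted p under 0.05. Each region had 1 array per strain group, so p-values of this test measure agreement between regions of the same rats, not between animals. None of the 451 called genes was among the 2.

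Stap2, a signal-transducing adaptor protein, had striatal differences of -0.52 in SDpcb, 1.17 in SHR, -3.28 in SD and 0.02 in WKY (F = 21.7, adjusted p = 0.029). Its signals in SD rats were 17.3 and 12.7 in dorsal and ventral striatum, against 107 to 213 in the 4 other regions. Dcakd, which holds a dephospho-coenzyme A kinase domain, had 0.22, 0.26, -2.84 and 0.14 in SDpcb, SHR, SD and WKY (F = 17.8, adjusted p = 0.0422). Its SD signals were 23.1 and 32.1 in the striatum, against 188 to 214 elsewhere. The lowest signals of both genes were on the 2 striatal arrays of SD. Without that strain group F was 5.27 for Stap2, whose SHR and SDpcb differences still had opposite signs, and 0.0310 for Dcakd. With any 1 strain group left out, or without the 4 arrays named above, no gene passed.

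Cartpt, Tmem178a and Lrrc4b came next without passing (adjusted p of 0.102, 0.0573 and 0.0517). Cartpt differed from the other regions by 0.63 in SDpcb, 1.88 in SHR, 1.37 in SD and 3.58 in WKY. The dopamine receptor genes had no small p in this test: F was 1.01 for Drd1 (adjusted p = 1) and 2.32 for Drd2 (adjusted p = 1).

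**Figure D5:**
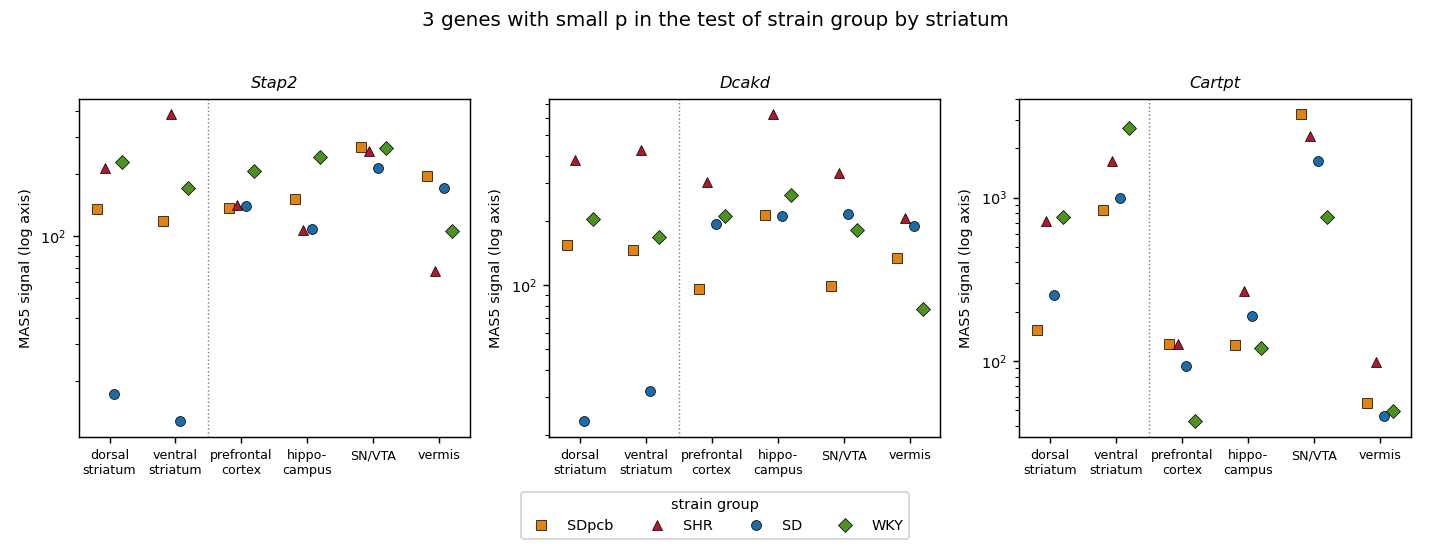
MAS5 signal (log axis) of Stap2, Dcakd and Cartpt on each of the 24 arrays, with the striatal regions left of the dotted line and the other regions right of it. Each symbol is 1 array of the strain group in the legend. Stap2 and Dcakd are lowest on the 2 striatal arrays of SD, and Cartpt passed no threshold in the strain group test.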

How the data were processed

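RNA from 6 brain regions was labelled with an Ovation kit and hybridised to rat RAE 230 2.0 arrays, 1 array per region and strain group. The deposited values are intensities, MAS5 signals per the submitters' processing notes (version not given in the sources used here), and each array's 2% trimmed mean lies close to 500.2, which the values themselves show. Detection calls were not used here.

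Of 31099 probe sets 57 controls were left out; 20826 had 1 gene symbol, 436 several and 9780 none in the platform annotation. Signals were taken to log2(signal + 1), with no further scaling, and 15521 probe sets at or above the median of mean log2 over the 24 arrays (a signal of 116) were tested. A gene stands for its brightest probe set, which left 9009 genes. The 4 differences per probe set (striatal mean minus the mean of the other regions, within a strain group) were tested with limma 3.58.1 in R 4.3.3, with an intercept, empirical Bayes with a trend on mean signal and Benjamini-Hochberg adjustment over all probe sets tested. The same was done against each region alone. Strain group by striatum was tested with a moderated F (12 residual degrees of freedom). The code was tested on simulated data.

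Genes named in the text were drawn mainly from sets given by rules. The sets were the 12 highest and 12 lowest genes, the 8 highest and lowest against each region, marker genes and label checks. They also held up to 6 called members of each of 38 lists (614 genes, 380 tested) or 2 members with the smallest p, and the 5 smallest F p. Not every gene of these sets is described: Ppp1r17, Cbln1, Bhlhe22, Atp2a3 and Neurod1 of the 12 lowest are not, nor is Plcxd2. Counts of named genes below are over these sets. Gpr6, Slc5a7, Aldh1b1 and Ttc39a, Nrn1 among the 18 lower genes, and the points labelled in the dorsal-ventral plot were picked with their values known. The lists and rules were chosen with earlier results of these data known. Alternatives changed the scaling, pseudocount, filter, gene summary, fit and thresholds, and left out regions, strain groups and, as an alternative added after seeing the data, 4 arrays.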

Additional observations from a re-analysis of the deposited data

Results flagged for a closer look

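Among 136 named genes tested, 9 had 1 strain group whose striatal difference stood apart from the other 3 by Dixon's test at n = 4; chance alone gives about 1 in 20. All values are log2 differences, striatum minus the other 4 regions. Drd2 was 3.10 in SHR, against 4.69 to 4.80 in the other 3 strain groups. Dlx5 was 1.62 in SD, against 2.75 to 2.83, and Nkx2-1, a factor of ventral forebrain interneurons, was 1.66 in SD, against 2.34 to 2.38. Htr2c was 2.06 in WKY, against 1.52 to 1.60. Dcakd was -2.84 in SD, against 0.14 to 0.26.

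The other 4 genes stood apart on the lower side or near zero. Pcp2, a Purkinje cell gene, was -4.78 in WKY, against -1.87 to -1.45 elsewhere, and the PFC array of WKY is the one that carried Pcp2. Igfbp2 was -2.25 in SDpcb, against -1.04 to -0.95. Vsnl1 was -0.96 in SDpcb, against -1.78 to -1.69. Hbb, a globin gene, was -0.51 in SDpcb, against -0.23 to -0.22. The part of other tissue in these values was not tested.

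The strain groups differed in the striatal difference by the moderated F test for Stap2 (F = 21.7) and Dcakd (F = 17.8), both with the low values on the 2 striatal arrays of SD.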

How the results depend on the processing

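Under the 25 alternatives, 3176 values of named genes kept their direction and side of the threshold, 140 lost the call, 12 gained it and 9, of 6 genes not called, changed sign. Without SD the difference was 0.21 for Dcakd and 0.23 for Stap2. Lrrc4b was -0.036 without the ventral striatum arrays, -0.063 without SDpcb, -0.11 without WKY and -0.085 without the vermis arrays. Ddc was 0.31 without the SN/VTA arrays, and Rps6 and Zic4 were 0.023 and 0.18 without the vermis arrays. Calls lost with 1 region left out, beside those given above, included Cacng3 (0.62), Grm5 (0.82), Nts (0.97), Rgs14 (0.998), Scn3b (0.38) and Pcp2 (-0.57) without the vermis. They also included Rgs14 (0.96) without the SN/VTA, and Rbp4 (0.97) and Scn3b (0.999) without the dorsal striatum. Quantile and cyclic loess scaling moved no count against the mean or a single region by over 1.5 times. Centring each array on its median shifted the median of all genes to 0.32 against the vermis and -0.21 against the SN/VTA, and gave 1357 higher and 278 lower genes against the vermis (83.0% higher, as against 67.6%) and 495 lower against the SN/VTA (43.0% higher, as against 59.9%). Against the PFC it gave 36.0% higher, as against 50.9%. Without the signal filter 244 genes were called lower than the mean of the 4 regions and 663 lower than the vermis. With the upper 25% of probe sets by signal, where fewer genes are tested, 142 were higher and 75 lower (83 and 115 against the PFC, 85 and 99 against the hippocampus, 240 and 141 against the SN/VTA, 486 and 199 against the vermis). A log2 threshold of 0.5 gave 783 and 505 (658 and 660, 522 and 536, 946 and 1092, 1672 and 980 in that order), and one of 2 gave 78 and 24 (65 and 43, 47 and 48, 134 and 39, 305 and 99). The lower count was 97 without the dorsal and 233 without the ventral striatum arrays. Leaving out each strain group in turn gave 289 to 313 higher and 127 to 164 lower genes. Without the 4 arrays that carried transcripts of other regions the SN/VTA comparison had 486 lower genes, from 2 strain groups.

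The strain group test passed for 4 genes with quantile scaling, 0 with a pseudocount of 16, 1 without the filter, 0 with the upper 25%, 4 with 1 probe set per gene, 6 without the dorsal and 10 without the ventral striatum arrays, and 4 at an adjusted p under 0.1. It passed for 0 when any 1 strain group, the PFC, hippocampus or SN/VTA arrays, or the 4 arrays were left out; the cause was not tested. A fit of all 24 arrays with no replicate block (region only) moved neither main count by over 1.5 times. Dim genes such as Gpr6 were left out by the filter on mean signal; without it 14217 genes were tested.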
